A study of Homo sapiens with 6 samples.

Results

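The ephrin, semaphorin, Slit and netrin genes encode signals that steer growing axons and that also act between epithelial cells. They were compared here between pLUM and pLB, a luminal and a luminobasal line derived from the same T47D breast cancer cells. All probes were taken whose gene name on the array was that of an Eph receptor (EPHA, EPHB), an ephrin (EFNA, EFNB), a semaphorin (SEMA), a plexin (PLXN), a neuropilin (NRP), a Robo receptor (ROBO), a Slit (SLIT), a netrin (NTN), an UNC5 receptor or DCC. This gave 69 genes with 103 probes, of 25940 gene names with 34127 probes on the array. No measured value entered this rule, but the gene families were chosen with earlier results of these data known. Of the 54 that were tested, limma called 23 higher in pLB and 10 lower, against 22.7% and 23.0% of all 17668 tested genes, and 13 of the 23 were well above background on no pLUM array. The highest fitted increases were those of SLIT3, EFNB2, NRP1, EFNB1 and EPHA3, of which only EFNB1 was measured in both lines. For the others the fitted values use pLUM signals that were not well above background, so that their rank is not established.

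T47D is an estrogen and progesterone receptor-positive line, and its T47Dco derivative had been grown as xenografts in NSG mice, which lack most lymphocytes. pLUM came from the tumor of an estradiol (E) treated mouse and was sorted as CLD3+ CD49f- cells, and pLB came from the tumor of a mouse given E plus progesterone and was sorted as CLD3- CD49f+ cells. Each is therefore 1 derived line. pLUM cells had received 1 nM E for 72 h and pLB cells were estrogen withdrawn (EWD), so that line and hormone cannot be told apart on these arrays. Before RNA extraction fixed cells of both were stained and sorted for CK5, and which CK5 fraction was hybridized is not given in the sources used here.

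RNA of 3 sorts of pLUM and 3 of pLB was hybridized to 1-colour Agilent arrays, and p-values measure only the spread between these sorts. The 75th percentile of the spot intensity was 449 to 869 over the 6 arrays, and 21280 to 22772 probes per array were well above background. With so few arrays the precision is limited. All 8 luminobasal markers examined, KRT5, TP63 and EGFR among them, were called higher in pLB, and 7 of 8 luminal markers, GATA3 and PGR among them, were called lower, which is the direction the labels give. CLDN3 and ITGA6 (CD49f), used to sort the lines, were among them, as was KRT5, which encodes the CK5 stained before RNA extraction. The marker lists were also chosen with earlier results of these data known, so that these counts are no separate check of the labels. The 3 pLUM arrays shared slide 1 with pLB replicate 1, and pLB replicates 2 and 3 were on slide 2.

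Ephrins are ligands held in the cell membrane. The A class is anchored by a lipid and the B class crosses the membrane, and both are bound by Eph receptor tyrosine kinases on the neighbouring cell, so that contact between cells is needed for signaling. Semaphorins are secreted or membrane-bound ligands of plexins, and the secreted class 3 acts mostly through neuropilins as co-receptors. Slits are secreted ligands of Robo receptors, and netrins are laminin-related ligands of DCC and the UNC5 receptors. In the mammary gland these systems take part in the sorting of cell layers, in duct growth and in the adhesion between luminal and basal cells.

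All signals below are log2 of the spot intensity relative to the 75th percentile of the array, so that 0 is the 75th percentile and a step of 1 is a 2-fold difference. They may be compared between arrays for the same probe but not between probes. A gene was tested if 3 or more of the 6 arrays flagged a probe of it as well above background, and was represented by its tested probe with the highest mean. A gene was called if it differed by at least 2-fold with a Benjamini-Hochberg adjusted p under 0.05 from limma, adjusted over all 23103 tested probes of the array. In bulk RNA, fewer cells that express a gene and less RNA per cell cannot be told apart.

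Of the 69 guidance genes, 54 were tested, and 23 of these (42.6%) were called higher in pLB, against 22.7% of all 17668 tested genes. Another 10 (18.5%) were called lower, against 23.0% of all genes. In either direction 33 (61.1%) were called, against 45.8%. For 48 of the 54 genes the values of the lines did not overlap, against 69.1% of all tested genes. The 48 include the genes described below that were well above background in pLB alone. The median log2 fold change was 0.62, compared with 0.035 over all tested genes. It was also 0.62 when dim signals were set to the lowest signal well above background on their array. Of the 23 genes called higher, 13 were well above background on no pLUM array. Such genes passed the filter only through pLB and had to differ, and their count is therefore not support for a shift of the family. Among the 37 genes well above background on all 6 arrays, 10 (27.0%) were called higher and 7 (18.9%) lower, compared with 20.6% and 20.5% of the 14705 genes measured to the same standard. Their median log2 fold change was 0.076, compared with 0.053 over all such genes. Where both lines were measured, the shares of the family thus lay closer to those of all genes. Normexp is another way of removing the local background of a spot, and was used here with an offset of 50 added to the intensities. With it, 15 genes were called higher and 10 lower.

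**Figure D1:**
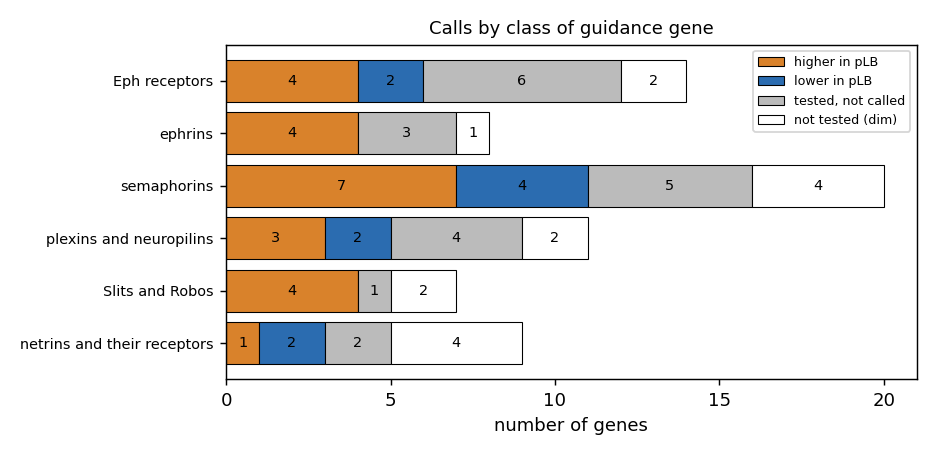
Number of guidance genes called higher in pLB, called lower in pLB, tested but not called, and not tested, for each class of gene. The ephrins (7 tested) and the Slits and Robos (5 tested) have 4 genes higher and 0 lower each, whereas semaphorins and Eph receptors hold both directions. Over all tested genes 22.7% were called higher and 23.0% lower. In both the ephrins and the Slits and Robos, 2 of the 4 were well above background on no pLUM array. Those genes passed the filter only through pLB.

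Within slide 1, pLB replicate 1 lay beyond all 3 pLUM arrays in the called direction for each of the 33 called genes. This had to be so, since none of them overlapped between the lines. The difference within this slide was at least 2-fold for 32 of them, the exception being ROBO1 at 0.95. The same array entered the calls, so that these counts are no separate check of the slide. No share over all genes was computed for them. Over the tested genes the median difference within the slide was 0.70.

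**Figure D2:**
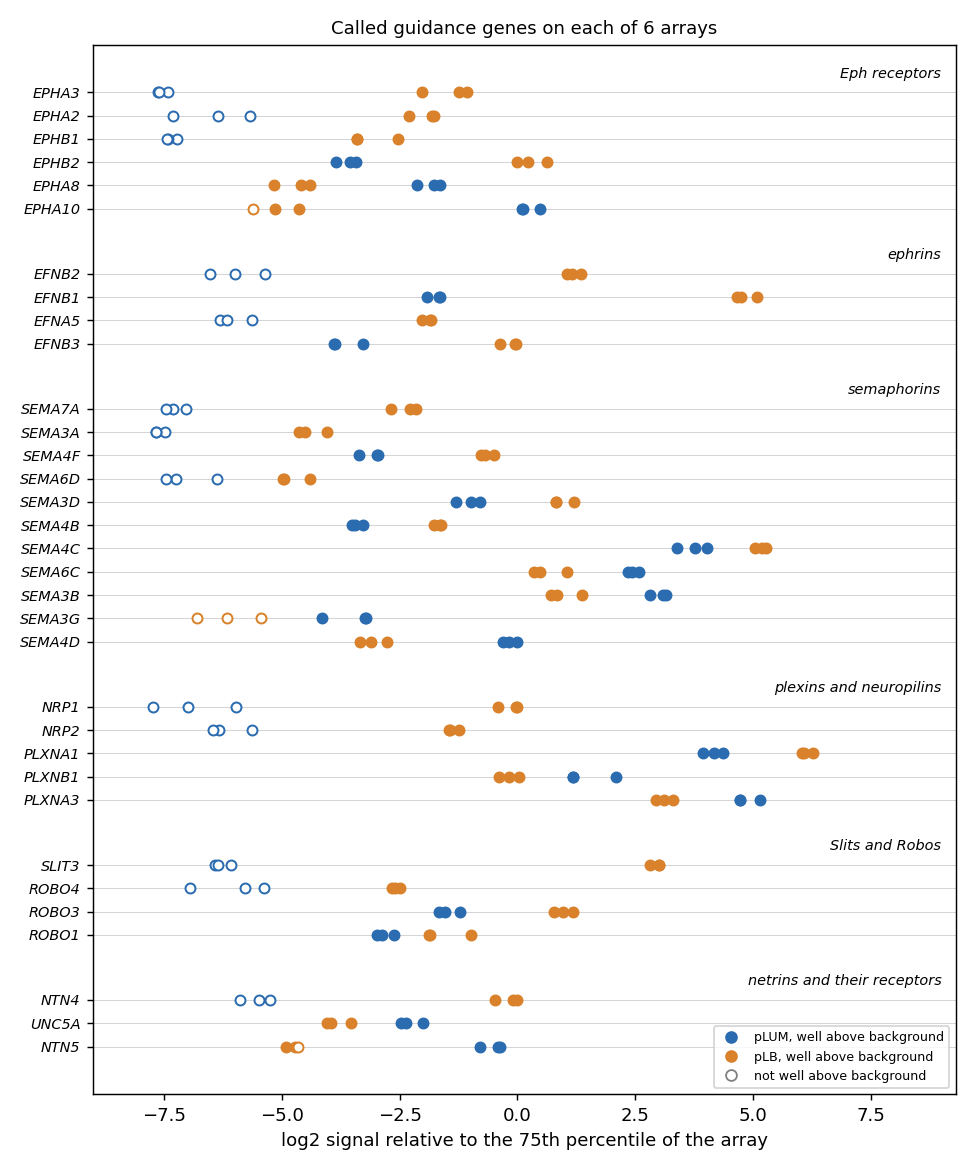
Signal of the 33 called guidance genes on each of the 6 arrays, as log2 relative to the 75th percentile of the array, with pLUM in blue and pLB in orange. Each point is 1 array, and open points were not well above background, as for EPHA3 and SLIT3 in pLUM.

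All 3 ligands of the ephrin B class were called higher in pLB, against 22.7% of all tested genes, and EFNB2 passed the filter only through pLB. EFNB1, EFNB2 and EFNB3 encode the 3 ephrins that cross the membrane and signal back into the cell that carries them. EFNB1 had signals of -1.64, -1.92 and -1.67 on the 3 pLUM arrays and of 4.66, 4.74 and 5.08 on the 3 pLB arrays. It was measured on all arrays, and each pLB array exceeded each pLUM array by a wide margin. This was a 95.2-fold difference (log2 fold change 6.57 with an SE of 0.18, limma adjusted p = 5.4e-07). SE is the standard error throughout.

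EFNB2, known for its part in arterial identity, had signals of -6.52, -5.36 and -5.99 in pLUM, none of which was well above background, and of 1.35, 1.17 and 1.06 in pLB. It was therefore at least 93.6-fold higher in the pLB line (limma adjusted p = 2.1e-06). Such a bound divides the mean of the bright line by a mean for the dim line. In the latter each array enters with the probe's own signal or, where this is higher, with the array's lowest signal that was well above background. The p-value printed beside a bound is that of the fitted difference, which uses the dim signals as they are, and not of the bound. A gene with a bound passed the filter only through its bright line and had to differ, so that this p-value is no separate support. EFNB3, the remaining ligand of the B class, rose from -3.87, -3.89 and -3.27 in pLUM to -0.05, -0.03 and -0.36 in pLB, which is 11.6-fold (log2 fold change 3.53 with an SE of 0.22, limma adjusted p = 1.3e-05).

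Among the ephrins of the A class, EFNA5 was at least 11.1-fold higher in the pLB line (limma adjusted p = 5.7e-06). Its signals were -6.30, -6.15 and -5.62 in pLUM, not well above background, and -1.86, -2.02 and -1.84 in pLB. The other measured A ephrins were not called. EFNA1, a ligand of EPHA2 in epithelia, had signals of 0.32, 0.35 and 0.32 in pLUM and of 0.19, 0.19 and 0.43 in pLB, and the lines overlapped (log2 fold change -0.06, limma adjusted p = 0.75). EFNA3 and EFNA4 had log2 fold changes of -0.71 and -0.70, under the 2-fold threshold. The genes EFNA4, EFNA3 and EFNA1 lie side by side on chromosome 1 of hg19, the build of the files, with 17.0 kb between the first pair of probes and 47.8 kb between the second. EFNA2 was well above background on 1 array of each line and was not tested.

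The promoters of EFNB1 and EFNB2, and of SLIT3 described below, are shown because these are the genes with a RefSeq entry whose signals moved furthest. The windows are from RefSeq for GRCh38.p14, run 5′ to 3′ on the strand of the gene from 250 bases before its start to 50 after it, and were available for 59 of the 69 genes. Capitals mark the letters of the GC box, GGGCGG or CCGCCC, bound by Sp1-type factors, and the E-box CACCTG or CAGGTG, bound by Snail-type repressors, on either strand. The EFNB1 window is at chrX:68828771-68829070 on the plus strand, that of EFNB2 at chr13:106535613-106535912 on the minus strand and that of SLIT3 at chr5:169301090-169301389 on the minus strand.
EFNB1: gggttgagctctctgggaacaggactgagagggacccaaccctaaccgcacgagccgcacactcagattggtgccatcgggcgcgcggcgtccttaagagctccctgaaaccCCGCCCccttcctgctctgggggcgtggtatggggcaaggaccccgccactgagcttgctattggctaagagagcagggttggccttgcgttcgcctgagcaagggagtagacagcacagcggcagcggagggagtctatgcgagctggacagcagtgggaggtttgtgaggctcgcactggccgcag
EFNB2: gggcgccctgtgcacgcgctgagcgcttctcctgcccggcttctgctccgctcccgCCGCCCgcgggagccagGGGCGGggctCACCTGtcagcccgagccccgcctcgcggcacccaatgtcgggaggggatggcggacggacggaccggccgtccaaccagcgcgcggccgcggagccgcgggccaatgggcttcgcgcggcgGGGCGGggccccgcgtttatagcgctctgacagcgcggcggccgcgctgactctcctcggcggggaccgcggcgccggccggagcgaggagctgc
SLIT3: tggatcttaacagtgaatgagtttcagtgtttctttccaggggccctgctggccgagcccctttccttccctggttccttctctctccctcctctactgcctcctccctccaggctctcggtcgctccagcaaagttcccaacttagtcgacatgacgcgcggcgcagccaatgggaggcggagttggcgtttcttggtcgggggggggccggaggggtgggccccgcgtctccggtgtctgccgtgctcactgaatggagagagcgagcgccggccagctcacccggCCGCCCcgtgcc

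The EFNB2 window held 3 GC boxes and 1 such E-box, and the EFNB1 and SLIT3 windows held 1 GC box each and no such E-box. Of 34796 distinct windows of this length, 44.9% held a GC box and 20.6% held the E-box, so that neither is rare. CG pairs numbered 49 for EFNB2, 18 for EFNB1 and 22 for SLIT3, and the median over all windows was 14. These are matches of letters, and no binding was measured.

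Of the Eph receptors, which are the receptors of these ligands, 12 of 14 were tested, with 4 higher and 2 lower in pLB by the call. Over all tested genes 22.7% were called higher and 23.0% lower. Of the 4, 3 were well above background on no pLUM array and passed the filter only through pLB. EPHA3, a receptor for the A ephrins, had signals of -7.42, -7.63 and -7.60 in pLUM, not well above background, and of -1.06, -1.24 and -2.03 in pLB. It exceeded pLUM by at least 15.3-fold in pLB (limma adjusted p = 2.7e-06). A second EPHA3 probe stayed at background on all arrays.

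EPHA2, the main Eph receptor of many epithelia, had signals of -5.68, -7.31 and -6.35 in pLUM and of -1.81, -1.76 and -2.29 in pLB. It was well above background in pLB alone and was at least 10.7-fold higher there (limma adjusted p = 6.9e-05). EPHB1 and EPHB2 are receptors for the B ephrins. EPHB1 had signals of -7.22, -7.42 and -7.42 in pLUM, not well above background, and of -3.40, -3.40 and -2.53 in pLB, at least 4.82-fold higher (limma adjusted p = 1.3e-05). Neither EPHA2 nor EPHB1 was called with normexp background correction.

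EPHB2 was measured on all arrays. Its signals rose from -3.42, -3.54 and -3.85 in pLUM to -0.01, 0.22 and 0.64 in pLB, which is 14.8-fold (log2 fold change 3.89 with an SE of 0.22, limma adjusted p = 8.5e-06). The other 2 EPHB2 probes were also called higher. One was well above background on no pLUM array and at least 2.35-fold higher, and the other was so on 1 pLUM array and 7.93-fold higher. EPHA8 and EPHB2 are neighbours on chromosome 1, with 325 kb between their probes, and were called in opposite directions.

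EPHA10 and EPHA8 were lower in pLB. EPHA10 lacks an active kinase and had signals of 0.09, 0.13 and 0.48 in pLUM and of -5.15, -4.64 and -5.61 in pLB, where 2 of 3 arrays were well above background. The difference was 41.3-fold (log2 fold change -5.37 with an SE of 0.27, limma adjusted p = 4.9e-06), and a second EPHA10 probe was at least 9.70-fold lower. EPHA8, a receptor for A ephrins, fell from -1.63, -2.12 and -1.76 to -5.15, -4.40 and -4.59, or 7.35-fold (log2 fold change -2.88 with an SE of 0.25, limma adjusted p = 5.6e-05), and its second probe was also called lower.

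EPHA1, EPHA4, EPHA6, EPHB3, EPHB4 and EPHB6 were not called. Of these EPHA4, a receptor for both classes of ephrin, had signals of 0.01, -0.07 and -0.25 in pLUM and of 0.56, 0.55 and 0.84 in pLB, which did not overlap but differed by 1.69-fold (log2 fold change 0.76 with an SE of 0.17, limma adjusted p = 0.0062). EPHA4 passed 2-fold only when arrays were scaled by spike-in probes. EPHB6, which also lacks an active kinase, was 1.98-fold lower, just under the threshold (limma adjusted p = 0.0012). EPHA5 and EPHA7 were well above background on no array.

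The largest fitted change of the 54 tested genes was that of a Slit. SLIT3, a secreted ligand of Robo receptors, had signals of -6.07, -6.41 and -6.36 in pLUM, not well above background, and of 3.01, 2.81 and 3.001 in pLB. This probe, listed for NM_003062 on chromosome 5 of hg19 from 168093367 to 168093426, gave at least 319-fold more signal in pLB (limma adjusted p = 2.0e-07). The other SLIT3 probe, 292 bases away and listed for a separate Ensembl transcript, had signals of -4.49, -5.38 and -5.16 in pLUM and of -4.54, -4.20 and -4.37 in pLB, and was not called (log2 fold change 0.65, limma adjusted p = 0.061). The increase of SLIT3 therefore rests on 1 probe. SLIT2 was well above background on no array. SLIT1 was so on 2 pLB arrays for 1 of its 3 probes, and was not tested.

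Of the Robo receptors 3 of 4 were called higher in pLB, against 22.7% of all tested genes. ROBO4 passed the filter only through pLB, and the call of ROBO1 depended on the processing and on 1 array, as given below. ROBO3, which acts in axons that cross the midline, had signals of -1.53, -1.66 and -1.22 in pLUM and of 0.78, 0.97 and 1.18 in pLB, or 5.46-fold more (log2 fold change 2.45 with an SE of 0.19, limma adjusted p = 3.7e-05). ROBO4, best known from endothelium, had signals of -5.37, -6.96 and -5.78 in pLUM, not well above background, and of -2.60, -2.66 and -2.48 in pLB, at least 6.95-fold higher (limma adjusted p = 0.00020). The probes of ROBO3 and ROBO4 lie 3.90 kb apart on chromosome 11. ROBO4 was not called with normexp background correction.

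ROBO1, a broadly expressed Slit receptor, had signals of -2.61, -2.88 and -2.98 in pLUM and of -1.87, -1.85 and -0.98 in pLB, the last of which stood above the other two. It was 2.39-fold higher in the pLB line (log2 fold change 1.26 with an SE of 0.27, limma adjusted p = 0.0055). The call was lost without pLB replicate 3, in the fit with slide as a block (0.95) and under normexp. ROBO2, a further Slit receptor, had signals of -2.52, -2.39 and -2.64 in pLUM and of -3.58, -3.84 and -2.82 in pLB, which did not overlap but differed by less than 2-fold (log2 fold change -0.90 with an SE of 0.28, limma adjusted p = 0.024). Its second probe gave -0.92. ROBO2 was called lower only without pLB replicate 3 (-1.19) or without a fold threshold.

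As markers of the cells in which ROBO4 and the neuropilins are best known, 5 endothelial genes were examined. CDH5 and ESAM were not called, PECAM1 and TEK were not well above background, and VWF was at least 1.80-fold higher in pLB. Their summed signal was 0.107 to 0.136 of the 75th percentile on the pLUM arrays and 0.124 to 0.291 on the pLB arrays. Of 6 fibroblast markers, only COL1A1 was measured, and it was not called. Their summed signal was 0.766 to 0.966 in pLUM and 0.469 to 0.918 in pLB. Of 4 neural markers, TUBB3 and MAP2 were measured and not called, and the sum was 13.3 to 14.5 in pLUM and 10.6 to 12.8 in pLB. Of 4 leukocyte markers, CD79A and CD68 were called higher in pLB, the probe that represents PTPRC was not called and CD3E was not tested, and the sum, mostly CD79A, was 0.987 to 1.64 in pLUM and 15.3 to 34.1 in pLB. A second PTPRC probe, measured on all arrays, was called lower (log2 fold change -1.20, limma adjusted p = 0.0045). The part of the leukocyte markers in the results was not tested.

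The receptors of semaphorins moved both ways. NRP1, a co-receptor of class 3 semaphorins and of vascular endothelial growth factor, had signals of -6.98, -7.74 and -5.98 in pLUM, not well above background, and of 0.00, -0.04 and -0.42 in pLB. It exceeded pLUM by at least 37.5-fold in pLB (limma adjusted p = 1.2e-05). The other 2 NRP1 probes were also called, at least 5.94-fold and 2.97-fold higher. NRP2, with a preference for other class 3 semaphorins, had signals of -5.62, -6.33 and -6.45 in pLUM, not well above background, and of -1.44, -1.23 and -1.44 in pLB, at least 16.1-fold higher (limma adjusted p = 5.4e-06). Its other probes were at least 4.41-fold and 2.66-fold higher.

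The probe that represents NRP1, the NRP2 probes and the EPHA2 probe are shown because each was dim in pLUM and carries a bound given here. Coordinates are of hg19, and a range longer than the probe spans an intron. The NRP1 probe lies at chr10:33496622-33502350 on the minus strand. The NRP2 probes lie at chr2:206562385-206562444, chr2:206608080-206608139 and chr2:206659703-206659762 on the plus strand, and that of EPHA2 at chr1:16451800-16455972 on the minus strand.
NRP1: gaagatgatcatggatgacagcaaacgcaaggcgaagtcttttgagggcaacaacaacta
NRP2 first: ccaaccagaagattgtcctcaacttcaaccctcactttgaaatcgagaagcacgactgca
NRP2 second: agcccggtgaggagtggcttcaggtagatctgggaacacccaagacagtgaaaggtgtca
NRP2 last: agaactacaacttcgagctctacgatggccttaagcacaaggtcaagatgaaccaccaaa
EPHA2: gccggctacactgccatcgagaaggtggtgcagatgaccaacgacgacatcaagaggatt

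The last NRP2 probe is listed for another transcript of the gene, NM_201266. Since no NRP2 probe was well above background on a pLUM array, its probes give bounds that cannot be ordered.

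Plexins carry the signal of semaphorins into the cell. PLXNA1, a partner of the neuropilins, rose from 3.95, 4.18 and 4.37 in pLUM to 6.09, 6.05 and 6.27 in pLB, or 3.93-fold (log2 fold change 1.97 with an SE of 0.18, limma adjusted p = 7.1e-05). PLXNA3, a plexin of the same class, fell from 4.73, 4.73 and 5.16 to 3.11, 2.95 and 3.31, or 3.36-fold (log2 fold change -1.75 with an SE of 0.19, limma adjusted p = 0.00020). Both were measured on all arrays and their lines did not overlap.

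PLXNB1, the receptor of SEMA4D, had signals of 1.17, 1.17 and 2.09 in pLUM and of -0.40, 0.03 and -0.19 in pLB, and was 3.16-fold lower (log2 fold change -1.66 with an SE of 0.28, limma adjusted p = 0.0017). PLXNA4, PLXNB2, PLXNB3 and PLXND1 were not called. PLXNB2, a receptor of SEMA4C, had signals of 1.68, 1.47 and 2.42 in pLUM and of 2.78, 2.63 and 2.16 in pLB, and the lines overlapped (log2 fold change 0.67, limma adjusted p = 0.084). PLXNC1 was well above background on no array, and PLXNA2 was so on 2 pLB arrays and no pLUM array and was not tested.

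Of 20 semaphorin genes, 16 were tested, of which 7 (43.8%) were higher and 4 (25%) lower in pLB by the call. Over all tested genes 22.7% were called higher and 23.0% lower. Of the 7, 3 were well above background on no pLUM array and passed the filter only through pLB. Both directions were found within the secreted class 3 (2 higher, 2 lower, 6 tested) and within the membrane-bound classes 4 (3 higher, 1 lower, 6 tested) and 6 (1 higher, 1 lower, 3 tested). SEMA7A, which is anchored in the membrane by a lipid and binds integrins and PLXNC1, had signals of -7.31, -7.46 and -7.02 in pLUM, not well above background, and of -2.29, -2.16 and -2.68 in pLB. It exceeded pLUM by at least 8.01-fold in pLB (limma adjusted p = 2.4e-06), and was not called with normexp background correction.

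SEMA4D and SEMA3G were lower in pLB. SEMA4D, the ligand of PLXNB1, fell from -0.02, -0.17 and -0.29 in pLUM to -3.10, -3.33 and -2.76 in pLB, or 7.49-fold (log2 fold change -2.90 with an SE of 0.20, limma adjusted p = 2.0e-05). A second SEMA4D probe was well above background on 1 array of each line and was not tested. The decrease of SEMA4D therefore rests on 1 probe. SEMA3G, a secreted ligand that acts through NRP2, had signals of -3.21, -4.14 and -3.23 in pLUM and of -6.80, -6.15 and -5.45 in pLB, where it was not well above background. It was at least 3.40-fold lower in the pLB line (limma adjusted p = 0.00096).

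SEMA4F, a transmembrane semaphorin, had signals of -3.36, -2.96 and -2.99 in pLUM and of -0.49, -0.69 and -0.77 in pLB, or 5.46-fold more (log2 fold change 2.45 with an SE of 0.18, limma adjusted p = 3.0e-05). A second SEMA4F probe, 660 bases away, overlapped between the lines and was not called (log2 fold change 0.56, limma adjusted p = 0.18).

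SEMA3A and SEMA6D were called higher in pLB close to the background. SEMA3A, the founding secreted semaphorin and a ligand of NRP1, had signals of -7.47, -7.67 and -7.67 in pLUM and of -4.50, -4.63 and -4.03 in pLB, at least 1.99-fold higher (limma adjusted p = 1.3e-05). SEMA6D, a transmembrane ligand of PLXNA1, had signals of -7.25, -7.45 and -6.38 in pLUM and of -4.94, -4.97 and -4.40 in pLB, at least 1.52-fold higher (limma adjusted p = 0.00064). Neither was well above background on a pLUM array. Neither was called when dim signals were raised to the lowest signal well above background, and with normexp background correction their log2 fold changes were -0.016 and -0.25.

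The remaining called semaphorins were measured on all arrays. SEMA3D, SEMA4B and SEMA4C were 3.92-fold, 3.32-fold and 2.72-fold higher in pLB, and SEMA3B and SEMA6C were 4.11-fold and 3.54-fold lower. SEMA6C was lower on both of its probes. SEMA3B, a secreted semaphorin described as a growth suppressor in lung and breast cancer cells, lies 88.5 kb from SEMA3F on chromosome 3, counted between their probes. SEMA3F had signals of -0.21, -0.12 and 0.37 in pLUM and of 0.30, -0.05 and 0.02 in pLB, which overlapped (log2 fold change 0.08, limma adjusted p = 0.77).

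Both probes of SEMA4B, a transmembrane semaphorin, are shown because they lie next to each other and gave unequal values, the first at chr15:90771408-90771467 and the second at chr15:90771532-90771591 of hg19 on the plus strand.
SEMA4B first: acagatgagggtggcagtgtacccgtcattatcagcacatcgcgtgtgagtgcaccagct
SEMA4B second: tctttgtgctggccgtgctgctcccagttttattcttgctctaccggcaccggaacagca

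The first SEMA4B probe was well above background on no pLUM array and was at least 10.2-fold higher in pLB, whereas the second, which represents the gene, was measured on all arrays and was 3.32-fold higher (log2 fold change 1.73 with an SE of 0.16, limma adjusted p = 7.3e-05). The second was not called with normexp background correction. SEMA3C, SEMA4A, SEMA4G and SEMA6B were not called. SEMA3E, SEMA5A and SEMA6A were well above background on no array, and SEMA5B was so on 2 pLB arrays and no pLUM array and was not tested.

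**Figure D3:**
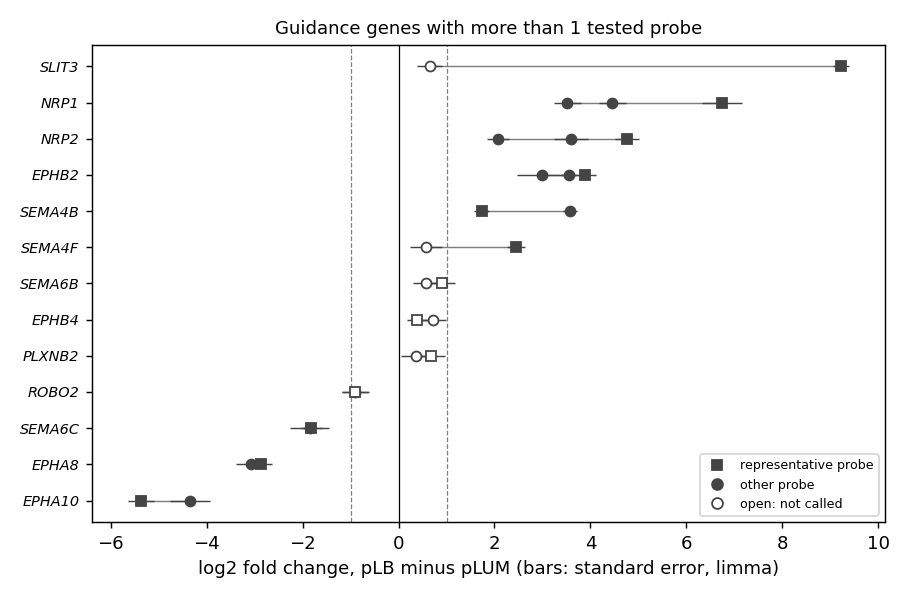
Log2 fold change (pLB minus pLUM) with its standard error for each tested probe of the 13 guidance genes that had more than 1. Squares are the probes that represent the gene, open symbols were not called and dashed lines mark 2-fold, and the 2 probes of SLIT3 lie furthest apart, at 9.22 and 0.65. Values of probes dim in 1 line are fitted and not bounds.

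Of the 13 guidance genes with more than 1 tested probe, 7 had all of them called in 1 direction, 4 had none called, and SLIT3 and SEMA4F had 1 called and 1 not. No guidance gene had probes called in opposite directions. Over all probes of the family, 30 of 70 were called higher and 13 lower, against 21.9% and 23.7% of the 23103 tested probes of the array. Of the 30, 19 were well above background on no pLUM array and had to differ. For 42 guidance probes each of the 6 arrays was above this limit, and 10 of these were called higher and 8 lower. The share over all such probes of the array was not computed. Over all genes measured to this standard, 20.6% were called higher and 20.5% lower.

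Of the netrin genes and their receptors, 4 of 9 were not tested. NTN4, a netrin of basement membranes that binds laminin, had signals of -5.26, -5.89 and -5.48 in pLUM, not well above background, and of -0.08, -0.01 and -0.47 in pLB, at least 36.5-fold higher (limma adjusted p = 2.2e-06). NTN5, another netrin family member, went the other way, from -0.41, -0.79 and -0.37 in pLUM to -4.72, -4.91 and -4.65 in pLB, where 2 of 3 arrays were well above background. The decrease was 18.8-fold (log2 fold change -4.24 with an SE of 0.18, limma adjusted p = 2.6e-06).

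NTN1, the netrin best known from axon guidance, had signals of 2.12, 2.25 and 2.14 in pLUM and of 2.61, 2.41 and 2.83 in pLB, which did not overlap but were not called (log2 fold change 0.45 with an SE of 0.17, limma adjusted p = 0.055). UNC5A, a receptor that can signal cell death without its ligand, fell from -2.37, -2.46 and -1.99 to -4.04, -3.95 and -3.53, or 2.96-fold (log2 fold change -1.57 with an SE of 0.21, limma adjusted p = 0.00055). UNC5B was not called (log2 fold change 0.42, limma adjusted p = 0.081). DCC, NTN3, UNC5C and UNC5D were well above background on no array.

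**Figure D4:**
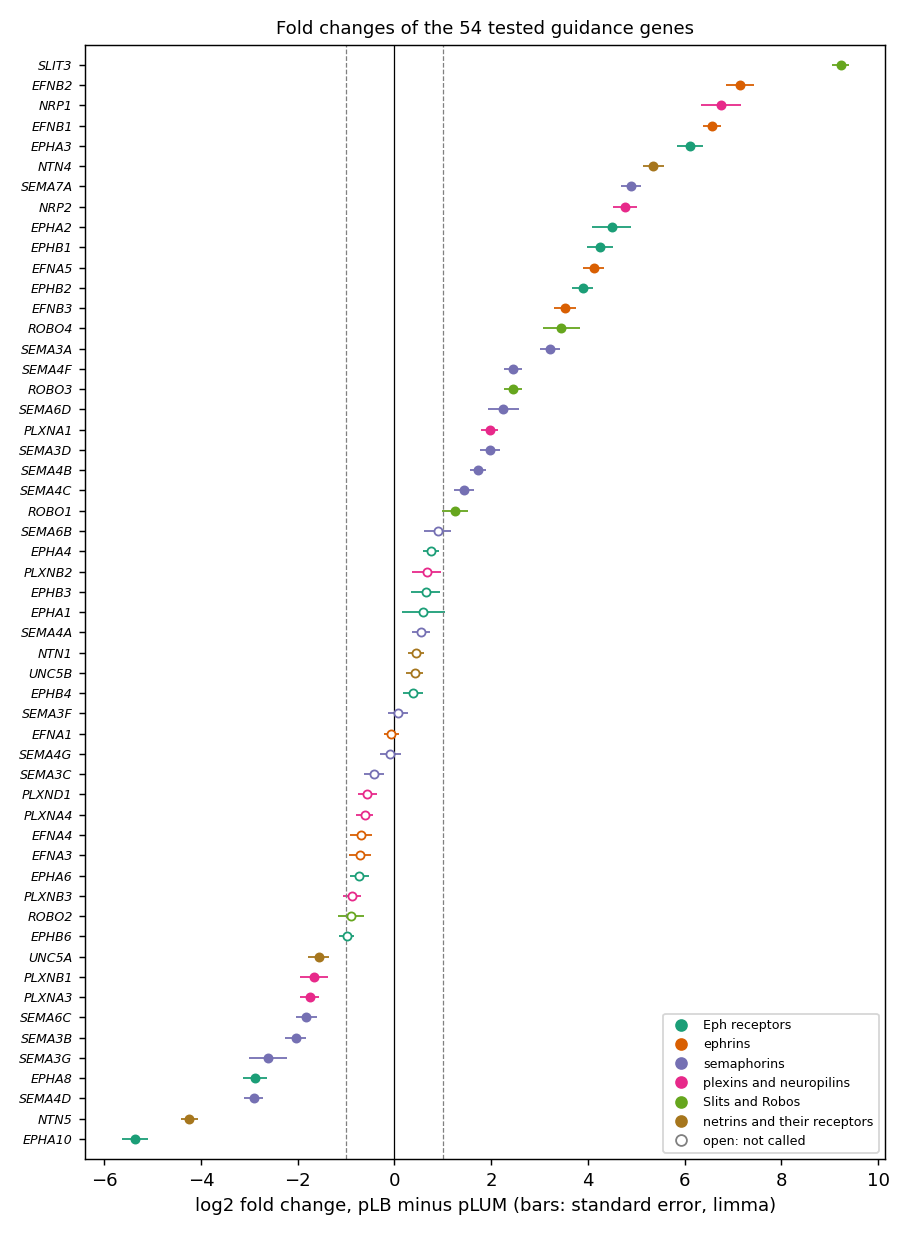
Log2 fold change (pLB minus pLUM) with its standard error for the 54 tested guidance genes, coloured by class. Open symbols were not called and dashed lines mark 2-fold, and values run from -5.37 for EPHA10 to 9.22 for SLIT3, with the uncalled genes between -0.98 and 0.90. Fitted values of genes dim in 1 line are not bounds.

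The 21 tested guidance genes that were not called had log2 fold changes from -0.98 to 0.90, and 11 of them had an adjusted p under 0.05 from limma but differed by less than 2-fold.

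Partners and effectors of these receptors outside the gene families were also examined, in a list of 53 genes of which 49 were tested. Of these, 21 were called higher and 9 lower in pLB, with a median log2 fold change of 0.71, against 22.7% and 23.0% of all genes and a median of 0.035. In contrast with the guidance genes, only 3 of the 21 were well above background on no pLUM array, and among the 39 partners well above background on all 6 arrays 17 were called higher and 5 lower, against 20.6% and 20.5%. The partner list was chosen with earlier results of these data known, so that its shares are a description and not support for a shift. The difference between the lists was not tested, and with normexp 5 partners were called lower instead of 9.

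The kinase FYN, which acts downstream of ephrins and semaphorins, had signals of -4.87, -4.97 and -4.54 in pLUM and of 0.49, 0.51 and 0.91 in pLB, or 43.0-fold more (log2 fold change 5.43 with an SE of 0.20, limma adjusted p = 1.3e-06). DPYSL3, a collapsin response mediator protein of the semaphorin pathway, rose from -3.84, -3.79 and -3.82 to 1.43, 1.23 and 1.29, or 35.1-fold (log2 fold change 5.14 with an SE of 0.15, limma adjusted p = 5.8e-07), and its relative CRMP1 was at least 8.87-fold higher. FLRT3, a ligand of UNC5 receptors, was 20.4-fold higher. Of the netrin-G genes, which encode lipid-anchored relatives of netrins, NTNG1 was at least 6.11-fold higher, and NTNG2, which 2 pLUM arrays flagged as well above background, was 15.9-fold higher.

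DSCAM, a netrin receptor beside DCC, had signals of 0.69, 0.53 and 0.39 in pLUM and of -6.84, -6.67 and -5.99 in pLB, where it was not well above background, and was at least 56.8-fold lower (limma adjusted p = 1.2e-06). The actin-binding protein ABLIM3 was 12.6-fold lower and FARP2, an exchange factor downstream of plexins, was 5.83-fold lower on the probe that represents it. A second FARP2 probe, measured on all arrays, overlapped between the lines and was not called (log2 fold change -0.31, limma adjusted p = 0.20). RND1, a small GTPase that binds plexins, and SRGAP3, a GTPase-activating protein of the Slit and Robo pathway, were at least 2.35-fold and 2.25-fold lower. DOCK1, an exchange factor for Rac, was 3.44-fold lower. KALRN was counted as lower by the probe that represents it (log2 fold change -1.02, limma adjusted p = 0.00072). Another KALRN probe, well above background in pLB alone, was called higher, at least 1.91-fold.

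**Figure D5:**
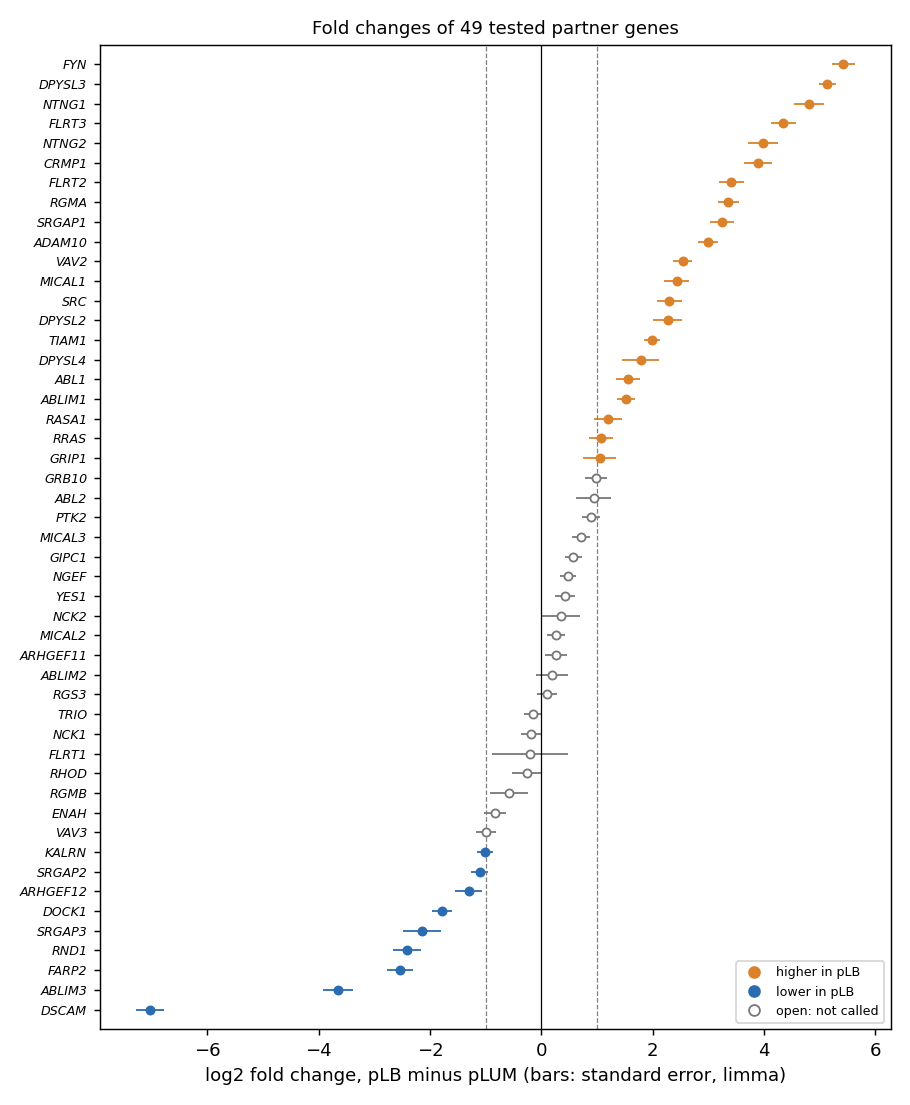
Log2 fold change (pLB minus pLUM) with its standard error for the 49 tested partner genes. Orange is higher and blue lower in pLB, open symbols were not called and dashed lines mark 2-fold, and values run from -7.03 for DSCAM to 5.43 for FYN.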

How the data were processed

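Arrays of 3 pLUM and 3 pLB samples were grouped by the labels. The authors deposited scanner output made with Agilent Feature Extraction (version 10.10.1.1 per the file headers). It gives each spot's linear intensity, corrected for background within the array and not normalized between arrays, and flags outliers and signals well above background. Gene names and hg19 positions are those of the files, and all 69 names are current in RefSeq for GRCh38.p14, from which promoters were taken. Here each deposited intensity was divided by the 75th percentile of its array and log2 was taken. Control and outlier spots (the latter 296 to 387 per array) were left out, repeated spots of a probe were averaged, and no gene spot was saturated. Probes that 3 or more of the 6 arrays flagged as well above background were fitted without covariates (lmFit and eBayes, limma 3.58.1, R 4.3.3). The fit was tested on simulated data. With 3 arrays against 3, an exact two-sided permutation test cannot give a p below 0.1.

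The gene families and the partner and marker lists were chosen with earlier results of these data known. Values per array are given for called members without overlap between lines and with all 3 arrays of a line well above background, up to 6 per class by fitted change, and for the uncalled member of each class with the highest mean. Of the partners, the 6 with the largest change in each direction were named, and KALRN because its probes were called in opposite directions. EPHB6, UNC5B and other members given with single values were named after their values were seen. Alternatives were other background corrections (normexp with an offset of 50), scalings, filters, thresholds, tests, blocks and probe rules, and leaving out each array in turn.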

Additional observations from a re-analysis of the deposited data

How the results depend on the processing

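Over 19 alternatives, 25 of the 33 called guidance genes kept their call wherever they had a value, and 8 lost it under at least 1. With normexp background correction, guidance genes called higher went from 23 to 15 and probes from 30 to 16, partner genes called lower from 9 to 5 and the median of the guidance genes to 0.36, and EPHA2, EPHB1, ROBO1, ROBO4, SEMA4B and SEMA7A were not called. SEMA3A (-0.016) and SEMA6D (-0.25) then changed sign. The cause was not tested. With probes well above background on all 6 arrays only, which tests fewer genes, 10 genes and 10 probes were higher, 8 probes lower and 5 partners lower, and the median was 0.076. Without a fold threshold, 18 genes and 22 probes were lower. The median was 0.52 with quantile normalization and 0.88 with spike-in scaling, which moved the median of all genes from 0.035 to 0.29 and the share of called probes that were higher from 48.0% to 58.6%, and with which EFNA1 was at 0.20. With normexp the median of all genes was -0.21.

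With each array left out in turn, genes called higher ranged from 23 to 24, genes lower from 10 to 13, probes higher from 30 to 31, probes lower from 13 to 17, partners higher from 19 to 22 and partners lower from 8 to 11. The median of the guidance genes ranged from 0.49 without pLUM replicate 1 to 0.74 without pLUM replicate 3. SEMA3F, which was not called, ranged from -0.036 without pLUM replicate 1 to 0.25 without pLUM replicate 3, and was at -0.029 without pLB replicate 1.

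Deviations of same-numbered arrays from their line means correlated at -0.27, -0.095 and -0.22 across probes, which gave no sign of pairing. With 3 arrays per line this cannot exclude that same-numbered sorts were handled together. With the replicate number as a block, 23 genes were called higher and 10 lower, 30 probes higher and 13 lower, and 21 partners higher and 9 lower, as without it. Signal over background limits the genes that were dim in a line to bounds.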
